A study of Homo sapiens with 66 samples.

Results

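The OAS genes were taken as the 4 protein-coding genes OAS1, OAS2, OAS3, and OASL, chosen by symbol among the 57820 genes of the deposited count tables. All 4 members passed the filter on low counts in both RNA-seq studies. OASL passed it in study 1 only through the groups in which it was high, since its 9 CTRL libraries held 34 to 117 reads of the gene. A rise of OASL in those groups was therefore set by the filter. Its calls, ranks, and p-values in study 1, and its part in counts over the 4 genes, are given as a description.

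Oligoadenylate synthetases bind double-stranded RNA (dsRNA) and then join ATP into 2′-5′-linked oligoadenylates. These serve as second messengers in antiviral defense. OAS1, OAS2, and OAS3 carry the enzymatic activity and differ in the number of their synthetase units, whereas OASL lacks the activity and is known to act on the dsRNA sensor RIG-I and on the DNA sensor cGAS. All 4 genes are classic IFN-stimulated genes and are transcribed upon type I IFN signaling through the factor ISGF3. ADAR edits adenosine to inosine in dsRNA, and hnRNPC is a nuclear RNA-binding protein that keeps cryptic exons in Alu elements out of mRNA. Both proteins have been linked to the amount of endogenous dsRNA in a cell.

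THP-1 cells derive from a human monocytic leukemia. Both studies nucleofected Cas9-transgenic THP-1 with gRNAs. Study 1 used a STING-deficient clone with nontarget gRNA (CTRL) or gRNAs against GFP, ADAR, HNRNPC, or ADAR and HNRNPC together. RNA was taken 3, 4, or 5 d later, and a further group of CTRL cells received IFN-α on day 3 and was taken on day 4. There were 16 groups with 3 libraries of total RNA each, 48 in all. Study 2 used a WT clone on day 4 and other gRNAs against HNRNPC and ADAR. It had 9 groups of 2 replicates: total and cytosolic RNA from each of CTRL and the targeted cells (ADAR, hnRNPC, or both), and nuclear RNA after hnRNPC targeting alone. Where 1 gene was targeted, the second gRNA was a nontarget gRNA. Each study rests on 1 clone, so clone, gRNA, and study cannot be told apart between them. In bulk libraries like these, a level in few cells of a culture and a lower level in each cell cannot be told apart.

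Libraries held 95107690 to 152829008 gene counts in study 1 and 49666958 to 73873756 in study 2. Levels are given as CPM (counts scaled to a common library size after TMM normalization). HNRNPC transcript was at 294 to 417 CPM in the 18 libraries of study 1 with an HNRNPC gRNA and at 725 to 869 CPM in the 30 libraries without it. In study 2, where the ranges pool total, cytosolic, and nuclear RNA, they overlapped. They were 297 to 701 CPM in 10 libraries (median 463) and 581 to 1025 CPM in 8 (median 907). The nuclear libraries all had the HNRNPC gRNA, and the fractions were not compared one by one. ADAR transcript did not separate the libraries of study 1 by gRNA (344 to 1509 CPM in 18 libraries with it and 364 to 1373 CPM in 30 without). In study 2, with the fractions pooled likewise, it was at 448 to 883 CPM in 8 libraries with the ADAR gRNA and 840 to 1278 CPM in 10 without. ADAR is an IFN-stimulated gene itself, and gene counts do not read small insertions or deletions at a cut site. STING1 transcript was likewise present in the STING-deficient clone (105 to 213 CPM). Of 8 monocytic markers, 7 were at 8.31 CPM or more in every library, and CD68 was at 0 to 0.292 CPM. Markers of T cells (CD3E, CD3D, CD8A), the epithelial marker EPCAM, and the B cell marker MS4A1 did not exceed 0.196 CPM, and KRT8 did not exceed 0.832 CPM.

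OAS1, OAS3, and OAS2 lie next to each other on the plus strand of chromosome 12 (GRCh37): OAS1 (ENSG00000089127.8) at chr12:113343661-113371024, OAS3 (ENSG00000111331.8) at chr12:113375856-113414265, and OAS2 (ENSG00000111335.8) at chr12:113416200-113449528. OASL (ENSG00000135114.8) lies apart on the minus strand at chr12:121455566-121477049. The MANE Select transcript has 1631 bases for OAS1, 4622 for OAS2, 6599 for OAS3, and 3270 for OASL. An antisense long noncoding RNA (ENSG00000257452) spans the 3 clustered genes and shares 222 exon bases with OAS1 and 0 with OAS2 and OAS3. No strand setting is stated for the counting, so reads of OAS1 and of this transcript cannot be told apart within those bases.

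The promoters of OAS1 and OAS3 are shown for their GAAA repeats, the letters from which the IFN-stimulated response element bound by ISGF3 is built. The sequences are from RefSeq (GRCh38.p14, plus strand, each 30 bases of a promoter of 300 bases), 5′ to 3′, with the motif in capitals.
OAS1, chr12:112906935-112906964: cccttctgagGAAACGAAACcaacagcagt
OAS3, chr12:112938316-112938345: ctgctagaaaGAAACGAAACtgaaagcagg
OAS3, chr12:112938452-112938481: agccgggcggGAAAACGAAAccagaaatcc
The capitals of the first and second windows are the motif GAAACGAAAC, which was chosen after these promoters had been read. It began 17 bases before the start of OAS1 and 148 bases before the start of OAS3. It was found, on either strand, in 21 of 35116 RefSeq promoters of this length (0.0598%). The capitals of the third window are a pair of GAAA repeats with 2 bases of any kind between them, the core of the response element, and began 12 bases before the start of OAS3. A further match of this core, which began 143 bases before the start, overlapped the motif of the second window. The core was found in 1255 promoters (3.57%), with no match in that of OAS1. Such matches describe letters and were not tested for binding. Promoters of OAS2 and OASL were not analysed here.

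In CTRL cells of study 1, the synthetase genes were low. Over the 9 CTRL libraries, OAS1 was at 2.35 to 6.98 CPM, OAS2 at 4.36 to 10.4 CPM, OAS3 at 5.76 to 12.1 CPM, and OASL at 0.256 to 0.796 CPM. Per kb of transcript, the mean levels on day 4 were 2.31 CPM for OAS1, 1.36 for OAS2, 1.21 for OAS3, and 0.121 for OASL. All 4 levels were higher on day 5 than on day 3 in CTRL cells, with log2 fold changes from 0.80 to 1.02. OAS1 alone was called (1.02 ± 0.20 [SE], adjusted p = 0.00034). Here and below, a call needed a log2 fold change of 1 or more in size together with an adjusted p not above 0.05, and interactions and differences between responses needed the adjusted p alone. In this comparison, 0.447% of all 13193 genes tested were called higher. The call on OAS1 was lost without replicate 2 of day 3 (0.91) or replicate 3 of day 5 (0.83), and OAS2 (1.05) and OASL (1.09) gained one without replicate 2 of day 5. Cells with GFP gRNA did not pass the test for any member on any day, with log2 fold changes against CTRL of the day from −0.14 to 0.57 and 0.0227, 0, and 0.189% of all genes called higher on days 3, 4, and 5. In the edgeR fit, 471, 908, and 3190 genes had an unadjusted p under 0.05 there.

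**Figure D1:**
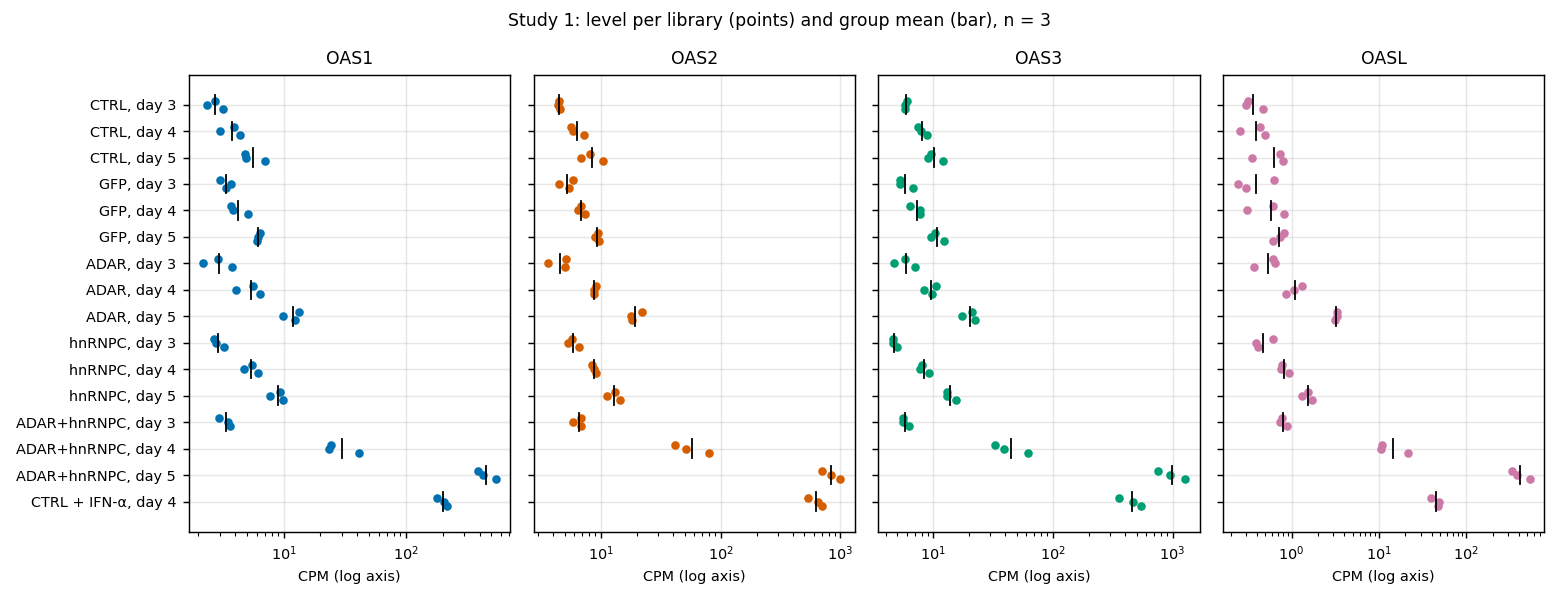
Level of each gene in each library of study 1 (points, CPM, log axis) and the group mean (bar, n = 3). In ADAR+hnRNPC-targeted cells of day 5, the 3 libraries sit at 331 to 533 CPM for OASL, which is at 0.354 to 0.796 CPM in CTRL cells of that day.

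IFN-α treatment served as the reference for the IFN response of the clone. It raised all 4 OAS genes within a day, and no OAS level of the 3 treated libraries overlapped the CTRL libraries of day 4. The share of all genes called higher was 1.21%. The median log2 fold change was 6.24 over the 4 genes and 0.02 over all genes tested.

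OAS2, the synthetase with a pair of homologous units, was at 539, 649, and 700 CPM in the treated libraries and at 5.69, 5.87, and 7.29 CPM in the CTRL libraries. Its log2 fold change was 6.64 ± 0.20 (SE, adjusted p = 4.6e-26), a 100-fold difference. OAS1, the smallest synthetase, was at 178, 206, and 216 CPM against 3.91, 3.03, and 4.37 CPM (5.73 ± 0.22, adjusted p = 7.1e-23). OAS3, the largest synthetase, which binds long dsRNA, was at 360, 471, and 543 CPM against 7.37, 7.80, and 8.85 CPM (5.83 ± 0.21, adjusted p = 1.2e-23). OASL was at 39.0, 48.2, and 47.1 CPM against 0.432, 0.256, and 0.494 CPM (6.83 ± 0.30, adjusted p = 6.7e-21). OASL and OAS2 had the largest fold changes, which differed by less than their SE, and OASL had the lowest level in CPM.

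ADAR+hnRNPC targeting without any added IFN raised the same 4 genes with time. On day 3, the log2 fold changes lay from −0.02 to 1.15, and OASL alone was called. The libraries of OAS2 and OASL did not overlap CTRL cells of that day, and those of OAS1 and OAS3 did. On day 4, all 4 genes were called higher. On day 5, they were among the 25 genes with the largest log2 fold changes of the 13193 tested (rank 6 for OASL, 19 for OAS2, 21 for OAS3, and 25 for OAS1). The shares of all genes called higher were 0.864% on day 3, 3.42% on day 4, and 9.41% on day 5. The ADAR+hnRNPC, ADAR, hnRNPC, and GFP comparisons of a day share their CTRL libraries.

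On day 3, OAS1 was at 2.97, 3.48, and 3.61 CPM (log2 fold change 0.28 ± 0.21), OAS2 at 6.90, 5.88, and 6.78 CPM (0.54 ± 0.17), and OAS3 at 5.61, 5.56, and 6.23 CPM (−0.02 ± 0.19). OASL was at 0.774, 0.744, and 0.887 CPM against 0.314, 0.301, and 0.467 CPM in CTRL cells. OASL was the 1 gene of the 4 that was called (1.15 ± 0.38, adjusted p = 0.020). That call was lost without replicate 1 or 2 of CTRL (1.06 and 1.03) or replicate 3 of the targeted cells (1.07), and with limma-voom (1.17).

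On day 4, OAS1 was at 24.6, 23.7, and 41.0 CPM, OAS2 at 41.9, 51.1, and 79.3 CPM, OAS3 at 32.5, 39.1, and 61.5 CPM, and OASL at 10.9, 10.7, and 21.5 CPM. Replicate 3 was the highest of the 3 libraries for each gene, and none of the libraries overlapped CTRL cells of the day. The log2 fold changes were 2.98 ± 0.20 for OAS1 (adjusted p = 2.5e-15), 3.19 ± 0.17 for OAS2 (8.3e-18), 2.47 ± 0.18 for OAS3 (5.3e-14), and 5.19 ± 0.30 for OASL (3.7e-17). Without replicate 3, they were 2.68, 2.88, 2.16, and 4.78, and all 4 genes were still called.

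On day 5, OAS1 was at 391, 424, and 541 CPM against 4.86, 4.94, and 6.98 CPM in CTRL cells, which gave a log2 fold change of 6.33 ± 0.22 (adjusted p = 1.7e-24). OAS2 was at 697, 832, and 998 CPM against 8.14, 6.78, and 10.4 CPM (6.64 ± 0.20, adjusted p = 1e-26). OAS3 was at 759, 948, and 1273 CPM against 9.52, 8.99, and 12.1 CPM (6.61 ± 0.22, adjusted p = 2.3e-25). Replicate 3 was again the highest library for these genes. OASL was at 331, 377, and 533 CPM against 0.742, 0.354, and 0.796 CPM (9.36 ± 0.31, adjusted p = 3.3e-25), a 656-fold difference. For OASL these values are a description, since it passed the filter on low counts through groups such as this one. The median of the 4 log2 fold changes was 6.62, and that of all genes was −0.04.

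**Figure D2:**
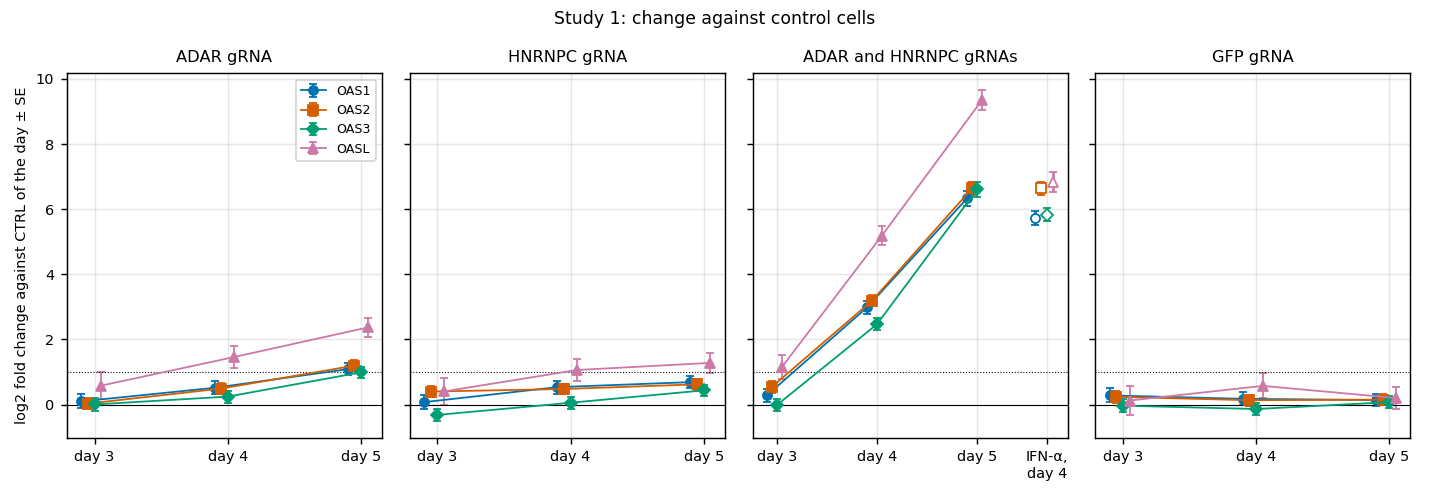
Log2 fold change of each gene against CTRL cells of the same day in study 1 (points, error bars SE, dotted line at 1), by gRNA and day, with IFN-α against CTRL of day 4 as open symbols in the panel of ADAR and HNRNPC gRNAs. OASL reaches 9.36 on day 5 with both gRNAs, and the GFP panel stays between −0.14 and 0.57 for the OAS genes.

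The change of the ADAR+hnRNPC response between days was tested as a difference of log2 fold changes. All 4 genes rose from day 3 to day 4 (2.70 for OAS1, 2.65 for OAS2, 2.48 for OAS3, and 4.04 for OASL), with 6.8% of all genes called higher. From day 4 to day 5 they rose by a further 3.35, 3.45, 4.14, and 4.16 in the same order, with 18% of all genes called higher. From day 3 to day 5, all 4 were again called (6.05 to 8.21), with 26.5% of all genes called higher. Of the single ADAR responses, OAS2 alone was called between days, with 1.17 ± 0.24 for day 5 minus day 3 (adjusted p = 0.031, 0.0834% of all genes called higher), and this call was lost on leaving out any of 8 of the 12 libraries (1.02 to 1.23). With replicate number as a block, OAS1 and OAS3 were called as well (1.01 for each). Day 4 minus day 3 and day 5 minus day 4 gave 0 calls for ADAR targeting (0.00758 and 0% of all genes called higher, with 1095 and 1336 genes at an unadjusted p under 0.05 in edgeR).

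ADAR targeting alone gave a smaller change of the OAS genes than ADAR+hnRNPC targeting on days 4 and 5. On day 3, 0 of the 4 genes and 0% of all genes were called higher, whereas 535 genes of the edgeR fit had an unadjusted p under 0.05. On day 4, OASL was called (0.0682% of all genes), at 1.31, 1.07, and 0.870 CPM against 0.432, 0.256, and 0.494 CPM (1.46 ± 0.35, adjusted p = 0.033). That call was lost without replicate 1 or 2 of CTRL (1.52 and 1.20) or any replicate of ADAR-targeted cells (1.31 to 1.60), with limma-voom, and with GFP-targeted cells as the control (0.89). On day 5, 3 of the 4 genes were called, beside 0.273% of all genes. OASL was at 3.32, 3.29, and 3.16 CPM (2.37 ± 0.29, adjusted p = 8.3e-07), and its libraries did not overlap CTRL cells. OAS2 was at 22.0, 17.7, and 18.3 CPM (1.20 ± 0.16, adjusted p = 7.3e-06) and OAS1 at 13.4, 9.82, and 12.5 CPM (1.09 ± 0.19, adjusted p = 0.00038). OAS3 was at 21.1, 17.5, and 22.1 CPM, just under the fold threshold (0.99 ± 0.18, adjusted p = 0.00052). OAS1 fell under that threshold without replicate 1 of CTRL or of ADAR-targeted cells (1.00 and 0.99) and against GFP-targeted cells (0.95), and OAS3 passed it without replicate 3 of CTRL (1.13), without replicate 2 of ADAR-targeted cells (1.08), or with library totals alone (1.01).

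hnRNPC targeting alone gave a call for OASL alone among the 4 genes, on days 4 and 5. Its changes were not tested against those of ADAR targeting. On day 3, 0 of the 4 genes were called higher, beside 0.553% of all genes, with 6153 genes of the edgeR fit at an unadjusted p under 0.05. OASL was called on day 4, beside 1.59% of all genes, at 0.778, 0.755, and 0.922 CPM (1.06 ± 0.35, adjusted p = 0.011). The call was lost without replicate 2 of CTRL (0.82) or replicate 3 of hnRNPC-targeted cells (0.97), with limma-voom (1.10), and against GFP-targeted cells (0.49). On day 5, OASL was called at 1.56, 1.32, and 1.72 CPM (1.28 ± 0.30, adjusted p = 0.0003, 3.98% of all genes), but not without replicate 2 of CTRL (0.99). The log2 fold changes of OAS1, OAS2, and OAS3 on day 5 were 0.69 ± 0.19, 0.62 ± 0.16, and 0.44 ± 0.18, under the fold threshold.

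To compare the joint effect with the single effects, an interaction term for the gRNA pair was tested in the 12 libraries of each day. It is the log2 fold change with both gRNAs beyond the sum of the 2 single log2 fold changes. On day 3, 0 of the 4 genes had an interaction (0.11 to 0.30), beside 0% of all genes, with 1180 genes at an unadjusted p under 0.05 in edgeR. On day 4, all 4 were called, beside 3.19% of all genes: 1.93 ± 0.31 for OAS1 (adjusted p = 0.0057), 2.22 ± 0.26 for OAS2 (0.00074), 2.17 ± 0.27 for OAS3 (0.0011), and 2.67 ± 0.43 for OASL (0.0052). On day 5, the interaction was 4.56 ± 0.23 for OAS1, 4.82 ± 0.22 for OAS2, 5.18 ± 0.24 for OAS3, and 5.71 ± 0.34 for OASL (adjusted p from 1.7e-09 to 2e-08), beside 24.1% of all genes. As a fold, the level of OASL in ADAR+hnRNPC-targeted cells of day 5 was 52.3 times that given by the single effects. The interaction of OASL is a description too, because of the filter on low counts. ADAR+hnRNPC- against ADAR-targeted cells gave 4 of 4 calls on days 4 and 5 (2.73 and 7.47% of all genes), and so did ADAR+hnRNPC- against hnRNPC-targeted cells (1.2 and 5.82%).

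Set beside IFN-α treatment, the response to ADAR+hnRNPC targeting was lower on day 4 and, for 3 of the 4 genes, higher on day 5. On day 4, all 4 genes were called lower than in IFN-α–treated cells of the same day, by −2.75 ± 0.19 for OAS1, −3.45 ± 0.17 for OAS2, −3.37 ± 0.19 for OAS3, and −1.64 ± 0.21 for OASL, beside 2.42% of all genes called lower. On day 5 against IFN-α of day 4, OASL was called higher by 3.21 ± 0.22 (adjusted p = 1.6e-15), OAS1 by 1.18 ± 0.18 (2.3e-07), and OAS3 by 1.12 ± 0.17 (3.1e-07), beside 8.84% of all genes. OAS2 was not called (0.42 ± 0.15, adjusted p = 0.013), and its libraries overlapped those of IFN-α. This second comparison differs in the day of harvest as well as in treatment. The call on OAS3 was lost without replicate 3 of ADAR+hnRNPC-targeted cells (0.90) or replicate 1 of IFN-α–treated cells (0.97).

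The proportion of OASL to the other members was compared between the stimuli, with libraries as replicates. The log2 ratio of OASL over OAS2 was −1.04 ± 0.12 (SD, n = 3) on day 5 of ADAR+hnRNPC targeting, −3.81 ± 0.07 in IFN-α–treated cells, and −3.98 ± 0.40 in CTRL cells of day 4. The difference between ADAR+hnRNPC-targeted cells of day 5 and IFN-α was 2.02 for OASL over OAS1, 2.77 over OAS2, and 2.08 over OAS3, and the 3 libraries of one group did not overlap those of the other. Each had p = 0.1 in a two-sided exact permutation test, the smallest p that 3 against 3 libraries allow, and 0.109 after Benjamini-Hochberg adjustment over 12 ratio tests. This comparison differs in the day of harvest as well as in treatment. With ADAR+hnRNPC targeting on day 4, the differences from IFN-α were 1.08, 1.78, and 1.69 in the same order. These libraries did not overlap either (exact permutation p = 0.1 and adjusted p = 0.109 for each). IFN-α against CTRL of day 4 differed by 1.08 for OASL over OAS1 and by 0.99 over OAS3, again without overlap between the libraries (exact permutation p = 0.1 and adjusted p = 0.109 for each). Over OAS2 it differed by 0.17 (exact permutation p = 0.8, adjusted p = 0.8).

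Levels of different genes were compared per kb of the MANE Select transcript. OAS1 was the highest per kb, followed by OAS2, OAS3, and OASL, in 45 of the 48 libraries of study 1. In the other 3 libraries, those treated with IFN-α, OAS2 came before OAS1. OASL made up 4.01 ± 0.21% (SD, n = 3) of the summed level per kb of the 4 genes with IFN-α and 2.38 ± 0.51% in CTRL cells of day 4. This share was 10.3 ± 0.96% on day 4 and 17.1 ± 0.84% on day 5 of ADAR+hnRNPC targeting. OAS2 made up 39.8 ± 0.03% with IFN-α and 24.8 ± 0.92% on day 5 of ADAR+hnRNPC targeting. The order and the shares depend on the length used. With the union of all annotated exons, an alternative added after the data were seen, OAS2 led in each of these groups, and OASL held 28.3% on day 5, 6.84% with IFN-α, and 4.56% in CTRL cells of day 4.

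**Figure D3:**
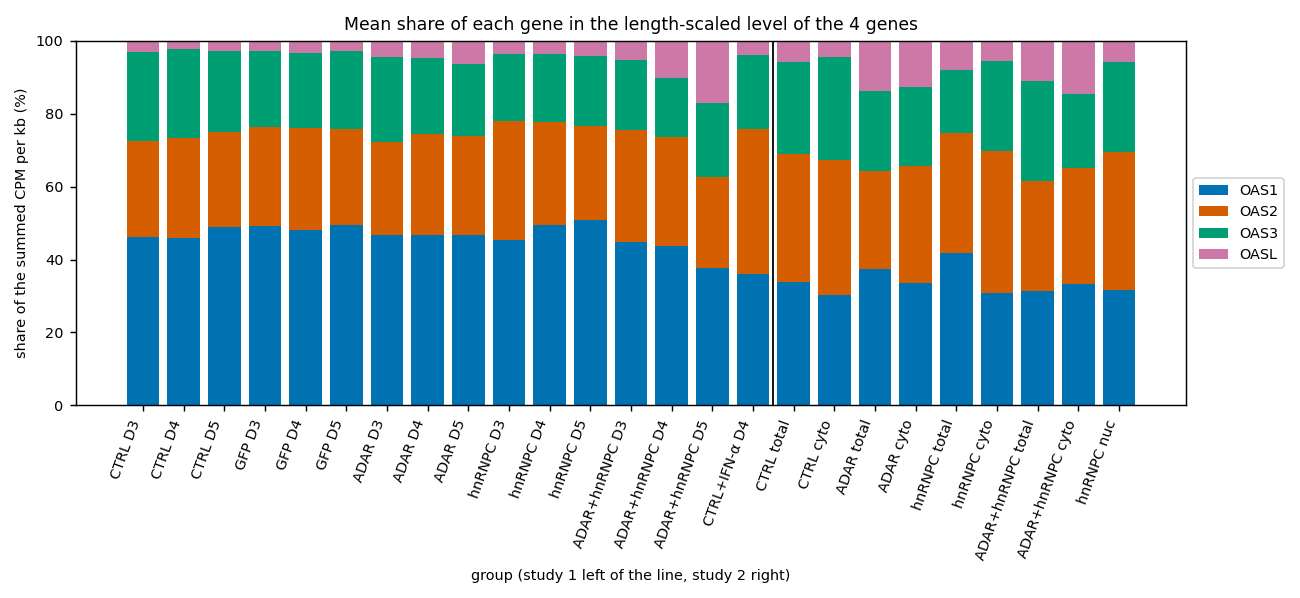
Mean share of each OAS gene in the summed CPM per kb of the 4 genes (bars, percent), by group, with study 1 left and study 2 right of the line. OASL takes 17.1% on day 5 of ADAR+hnRNPC targeting and 4.01% in IFN-α–treated cells.

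Genes that act on the products of the synthetases or are linked to their pathway were ABCE1, which also recycles ribosomes, and PDE12 and AKAP7, which can degrade 2′-5′-linked oligoadenylates. None of these 3 was called on day 5 of ADAR+hnRNPC targeting or with IFN-α. ABCE1 had a log2 fold change of −0.82 ± 0.07 on day 5, AKAP7 of 0.38 ± 0.09, and PDE12 of −0.06 ± 0.05. With IFN-α they were at 0.13 ± 0.07, 0.18 ± 0.09, and 0.01 ± 0.05. CGAS, which encodes the structurally related cGAS, had 0.87 ± 0.08 on day 5 and 0.10 ± 0.08 with IFN-α, without a call in either.

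A list of 8 genes held dsRNA sensors, the adaptor gene MAVS, and ADAR, which is itself a targeted gene. Of these, 6 were tested, and 5, with ADAR among them, were called higher both on day 5 of ADAR+hnRNPC targeting and with IFN-α. RIGI was at 5.52 ± 0.15 on day 5 and 2.95 ± 0.14 with IFN-α on the log2 fold change scale, IFIH1 (MDA5) at 4.46 ± 0.12 and 2.97 ± 0.11, and DHX58 (LGP2) at 4.67 ± 0.17 and 3.49 ± 0.16. EIF2AK2, which encodes the dsRNA-activated kinase PKR, was at 3.06 ± 0.11 and 2.67 ± 0.11, and ADAR at 1.75 ± 0.08 and 1.61 ± 0.08. MAVS, the adaptor of RIG-I and MDA5, was at −0.14 ± 0.07 and 0.03 ± 0.07 and was not called. ADAR+hnRNPC targeting of day 5 against IFN-α of day 4 was called for RIGI (2.67 ± 0.13), IFIH1 (1.57 ± 0.10), and DHX58 (1.30 ± 0.15). In that comparison, 8.84% of all genes were called higher, and it differs in the day of harvest as well as in treatment. The median of the list was 3.76 on day 5 and 2.81 with IFN-α, both under the medians of the OAS genes.

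Of ISGF3, STAT2 (2.47 ± 0.10 and 1.73 ± 0.10) and IRF9 (2.88 ± 0.31 and 2.60 ± 0.31) were called higher both on day 5 and with IFN-α. IFNAR1, IFNAR2, JAK1, and TYK2 were not called in either. Among 5 IFN regulatory factors and ligands, 3 were tested: IRF7, called at 5.33 ± 0.21 and 3.75 ± 0.19, IRF1, called on day 5 (3.02 ± 0.11) and under the fold threshold with IFN-α (0.55 ± 0.11), and IRF3, at 0.03 ± 0.07 and 0.11 ± 0.07. IFNB1, the gene of IFN-β, was too low on average to be tested. Its level was 17.5 ± 7.92 CPM (SD, n = 3) in ADAR+hnRNPC-targeted cells of day 5, 0.908 ± 0.291 CPM on day 4, and 0.0135 ± 0.0235 CPM with IFN-α. IFNL1 was at 2.80 ± 1.59 CPM on day 5 and at 0 CPM in each of the 3 libraries with IFN-α.

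The levels across groups were ordered for each gene. In study 1, OAS1, OAS3, and OASL had the same 3 highest groups, none of which overlapped its neighbors: ADAR+hnRNPC of day 4, IFN-α, and ADAR+hnRNPC of day 5 in rising order. For OAS2 the ranges of IFN-α and of ADAR+hnRNPC of day 5 overlapped. Lower in the order, most neighboring groups could not be separated: over the whole order, 11 of 15 neighboring pairs overlapped for OAS1, 11 for OAS2, 9 for OAS3, and 10 for OASL.

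For each member, the genes whose group means followed it most closely over the 16 groups of study 1 were taken by Pearson's r. For OAS1 they were EPSTI1, IFIT3, and IFI44 (r of mean log2 CPM 0.997, 0.996, and 0.995, with 0.979, 0.994, and 0.993 over the 9 groups of study 2). For OAS2 they were MX1, EPSTI1, and IFI44 (0.998, 0.995, and 0.994, with 0.960, 0.962, and 0.951 in study 2), and for OAS3 EPSTI1, MX1, and IFIT3 (0.996, 0.995, and 0.991, with 0.936, 0.933, and 0.947). For OASL they were IFIT2, IFIT3, and STAP1 (0.992, 0.990, and 0.989, with 0.987, 0.987, and 0.977). The members among themselves had r of 0.974 to 0.997 in study 1 and 0.925 to 0.991 in study 2. Few groups have high levels, and the groups share 1 experiment and its normalization, so these values are given without a test. By Spearman's rho, with tied genes given their best rank, 3 of the 3 genes were within the closest 3 ranks for OAS1, 1 for OAS2, 0 for OAS3, and 2 for OASL.

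Study 2 asked for the same genes in the WT clone and by RNA fraction. The 4 CTRL libraries had OAS1 at 15.97 to 24.8 CPM, OAS2 at 56.5 to 84.5 CPM, OAS3 at 53.9 to 91.9 CPM, and OASL at 6.04 to 7.62 CPM, all above the 9 CTRL libraries of study 1. The 2 studies were scaled separately, and this difference was not tested. Replicate 1 was above replicate 2 in 8 of 9 groups for OAS1, 7 for OAS2, 7 for OAS3, and 8 for OASL, with median ratios of 1.36 to 1.5.

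ADAR targeting alone raised all 4 OAS genes in study 2, in total RNA (2.04% of all 13650 genes called higher) and in cytosolic RNA (4.6%). In total RNA, OASL was at 55.04 and 40.5 CPM against 7.62 and 6.07 CPM in CTRL cells (2.80 ± 0.28, adjusted p = 7.6e-06). OAS1 was at 77.0 and 52.3 CPM against 24.0 and 15.97 CPM (1.69 ± 0.36, adjusted p = 0.0057). OAS2 was at 155 and 108 CPM against 56.5 and 59.1 CPM (1.19 ± 0.34, adjusted p = 0.029), and OAS3 at 183 and 125 CPM against 53.9 and 65.3 CPM (1.37 ± 0.35, adjusted p = 0.017). The groups did not overlap for any of the 4 genes. In cytosolic RNA, the log2 fold changes were 1.68 ± 0.36, 1.35 ± 0.34, 1.17 ± 0.34, and 3.02 ± 0.28 for OAS1, OAS2, OAS3, and OASL. In total RNA, OAS1, OAS2, and OAS3 were not called without replicate 2 of CTRL (1.47, 1.26, and 1.55) or replicate 1 of ADAR-targeted cells (1.39, 0.91, and 1.07), nor OAS2 without replicate 1 of CTRL (1.16). In cytosolic RNA, OAS2 and OAS3 were not called without replicate 2 of CTRL (1.17 and 1.00) or replicate 1 of ADAR-targeted cells (1.00 and 0.81), nor OAS3 without replicate 1 of CTRL (1.37). OASL was called in all of these fits. OAS2 in total RNA was not called with DESeq2 (1.09) or with library totals alone (1.17).

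hnRNPC targeting alone raised OASL in total RNA, at 15.8 and 13.7 CPM (1.10 ± 0.27, adjusted p = 0.029, beside 0.278% of all genes). This call was lost without replicate 2 of CTRL (0.97), without replicate 1 or 2 of hnRNPC-targeted cells (0.99 and 1.20), and with limma-voom (1.10). OAS1 had 1.02 ± 0.35 without passing (adjusted p = 0.095), although it passed without replicate 1 of CTRL (1.35), OAS2 0.64 ± 0.33, and OAS3 0.19 ± 0.34. In cytosolic RNA, 0 of 4 were called (0.46 to 0.87), beside 0.256% of all genes, with 2192 genes at an unadjusted p under 0.05 in edgeR.

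With both gRNAs, all 4 genes were called against CTRL in total RNA (3.36% of all genes) and in cytosolic RNA (6.67%). In total RNA, OAS1 was at 148 and 81.9 CPM (2.53 ± 0.37, adjusted p = 0.00012), OAS2 at 368 and 247 CPM (2.41 ± 0.35, 0.00012), OAS3 at 478 and 319 CPM (2.74 ± 0.36, 5.7e-05), and OASL at 106 and 57.2 CPM (3.57 ± 0.28, 4.8e-07). In cytosolic RNA, OASL was at 146 and 100 CPM against 6.77 and 6.04 CPM in CTRL cells (4.26 ± 0.29, adjusted p = 3.5e-08). The other 3 genes there had 2.69 ± 0.37, 2.35 ± 0.35, and 2.08 ± 0.35 in the order OAS1, OAS2, OAS3. Against hnRNPC-targeted cells, 4 of 4 genes were called in both fractions (3.63 and 6.54% of all genes), although OAS1 in total RNA was lost without replicate 2 of hnRNPC-targeted cells (1.13) or replicate 1 of ADAR+hnRNPC-targeted cells (1.01). Against ADAR-targeted cells, OAS3 (1.37 ± 0.35) and OAS2 (1.22 ± 0.34) were called in total RNA (1.71% of all genes) and OASL (1.24 ± 0.26) in cytosolic RNA (0.176%). The first 2 calls were lost without replicate 2 of ADAR- or replicate 1 of ADAR+hnRNPC-targeted cells, and the call on OASL without any 1 of the 4 libraries (0.95 to 1.48). With replicate number as a block, OAS1 (1.00) and OAS2 (1.01) were called beside OASL in cytosolic RNA.

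**Figure D4:**
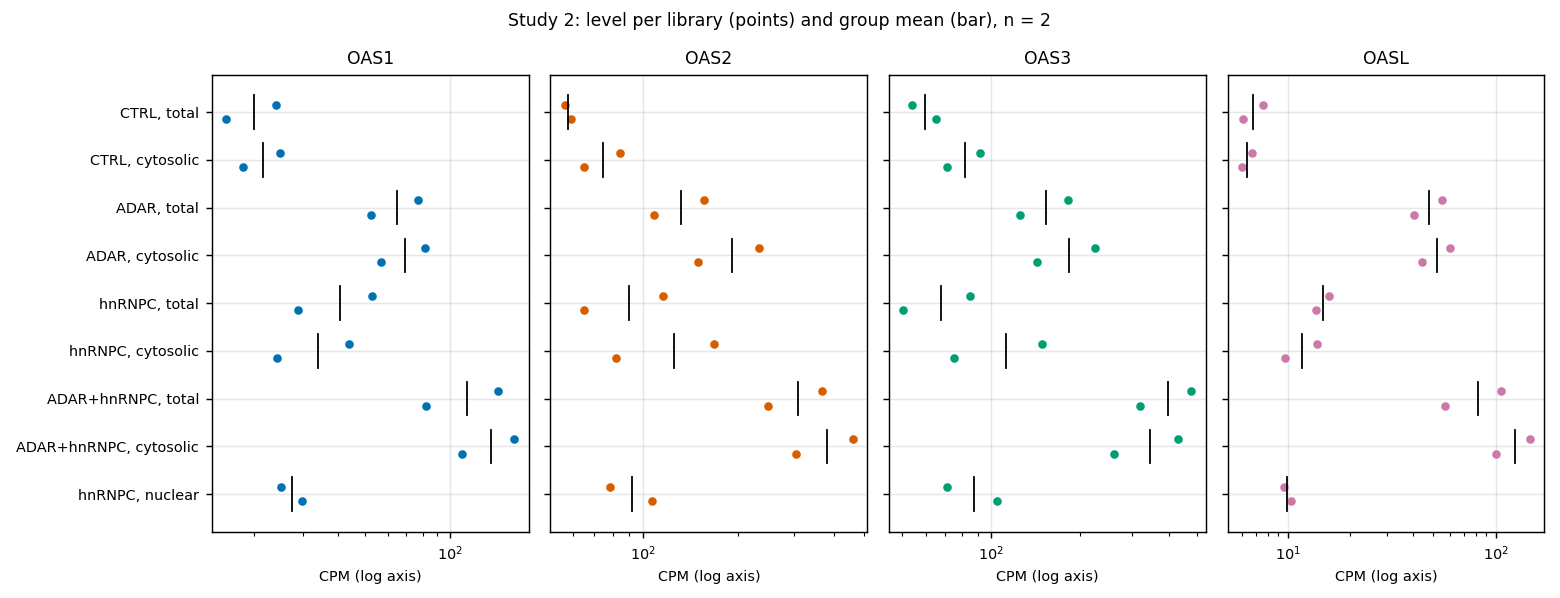
Level of each gene in each library of study 2 (points, CPM, log axis) and the group mean (bar, n = 2). OASL is at 57.2 to 146 CPM in ADAR+hnRNPC-targeted cells and at 6.04 to 7.62 CPM in CTRL cells.

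The interaction in study 2 was not called for any of the 4 genes in the fit without a replicate block. With replicate number as a block, OAS3 was called in total RNA (1.26, adjusted p = 0.029), and without the filter on low counts OAS3 (1.19) and OAS2 (0.58) were. In the fit without the block, in total RNA it was −0.19 ± 0.49 for OAS1, 0.58 ± 0.47 for OAS2, 1.19 ± 0.48 for OAS3 (adjusted p = 0.081, called at 1.61 without replicate 1 of hnRNPC-targeted cells), and −0.33 ± 0.37 for OASL, beside 7.18% of all genes called higher. In cytosolic RNA it was 0.26 to 0.45, beside 0% of all genes, with 345 genes at an unadjusted p under 0.05 in edgeR. The upper bounds of the 95% intervals were 0.39 to 2.13 in total RNA and 1.09 to 1.40 in cytosolic RNA, and a missed call does not show that the single effects add up.

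The OAS transcripts were not found to shift between RNA fractions. Cytosolic against total RNA gave 0 calls among the 4 genes in CTRL cells and after ADAR, hnRNPC, or joint targeting (0.52, 1.66, 3.03, and 0.447% of all genes called higher), with log2 fold changes from −0.33 to 0.73. Without 1 library, OAS3 was called after hnRNPC targeting (1.15 without replicate 1 of total RNA and 1.14 without replicate 2 of cytosolic RNA), and OASL after joint targeting (1.10 without replicate 1 of total RNA). Cytosolic against nuclear RNA of hnRNPC-targeted cells gave 0.24 to 0.43 without a call, beside 15.5% of all genes. In these comparisons, 6880 to 9974 genes had an unadjusted p under 0.05 in edgeR. The median of all genes was itself at 0.09 to 0.27 in these comparisons. A difference of this shift between ADAR+hnRNPC-targeted and CTRL cells was not called for any of the 4 genes (−0.66 to 0.69, beside 4.27% of all genes called higher and 2144 genes at an unadjusted p under 0.05). Without the filter on low counts, 2 of the 4 genes were called in this test. With 2 libraries a group, a missed call does not show that the fractions were alike.

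The pathway lists of study 2 were counted in total RNA. ADAR targeting raised 3 of the 6 tested genes on the list of dsRNA sensors, MAVS, and ADAR: RIGI (1.87 ± 0.32), DHX58 (1.62 ± 0.30), and IFIH1 (1.24 ± 0.24). Of the regulatory factors it raised IRF7 (1.60 ± 0.30). ADAR+hnRNPC targeting raised 4 genes of that list, with EIF2AK2 (1.30 ± 0.22) beside RIGI (2.92 ± 0.33), IRF9 (1.59 ± 0.24) of ISGF3, and IRF1 (1.58 ± 0.19) and IRF7 (1.95 ± 0.30). IFNB1 was at 1.14 ± 0.0473 CPM in ADAR-targeted, 2.37 ± 0.597 CPM in ADAR+hnRNPC-targeted, and 0.193 ± 0.0952 CPM in CTRL cells (SD, n = 2).

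Reads on introns were counted separately in study 1. In such counts, pre-mRNA, introns retained in transcripts, and exons of further annotated transcripts cannot be told apart. The intron table holds 35 introns inside the members: 6 of OAS1, 9 of OAS2, 15 of OAS3, and 5 of OASL. The filter on low counts left 1 intron of OAS1 (chr12:113356268-113357193) and 2 of OAS2 (chr12:113416591-113424842 and chr12:113425114-113433100), which passed through the groups where they were high. A difference of these 3 introns in those groups was therefore set by the filter, and the values are given as a description. All 3 were past the thresholds with IFN-α (5.38 ± 0.34, 5.63 ± 0.44, and 4.17 ± 0.24), beside 0.821% of the 21798 introns tested. All 3 were also past them with ADAR+hnRNPC targeting on day 4 (2.63 ± 0.32, 3.22 ± 0.42, and 2.13 ± 0.23, 3.57% of all introns) and day 5 (6.03 ± 0.35, 5.91 ± 0.43, and 4.13 ± 0.24, 5.49%). On day 4 they were lower than with IFN-α by −2.75 to −2.04 (1.69% of all introns called lower), and on day 5 none was called against IFN-α (0.36 to 0.95, 6.06% called higher). The intron of OAS1 was also called in hnRNPC-targeted cells of day 5 (1.18 ± 0.31, 4% of all introns), on day 3 of ADAR+hnRNPC targeting (1.41 ± 0.38, 1.68%), and in CTRL cells between days 5 and 3 (1.76 ± 0.37, 0.239%). The last 2 calls were lost without replicate 2 or 3 of CTRL of day 3. Against the same CTRL libraries of day 3, this intron was also higher in GFP-targeted cells (1.47 ± 0.39), without a call. It was at 1.08 ± 0.39 after hnRNPC and 0.90 ± 0.40 after ADAR targeting on that day, again without a call. Against ADAR- and hnRNPC-targeted cells of day 3, it was at 0.51 ± 0.35 and 0.32 ± 0.34 in ADAR+hnRNPC-targeted cells, without a call. ADAR+hnRNPC-targeted cells were not tested against GFP-targeted cells for this intron, so its value on day 3 cannot be tied to those gRNAs.

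Intronic reads, summed over the introns of a gene, were set against its gene count. The authors took introns from APPRIS-annotated transcripts alone and counted genes over all annotated exons. A read in an exon of another transcript can therefore count in both. For OAS1 they were 22.0% of the gene's CPM in CTRL cells of day 5, 18.7% on day 5 of ADAR+hnRNPC targeting, and 20.3% with IFN-α (means, n = 3). For OAS2 these values were 24.7, 9.62, and 8.68%. OAS3 had 12.1, 8.35, and 7.57%, and OASL 23.2, 8.10, and 10.8%. OASL in CTRL cells rested on few reads, and its 3 libraries ranged from 16.8 to 30.8%.

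The deposited editing sites included few in the OAS genes. In study 1 there were 4 sites in the coding sequence of OAS1 (chr12:113348922-113349027), 8 in an intron of OAS3 (chr12:113380350-113380412), and 6 in a UTR of OASL (chr12:121458019-121458061), counted where a library had at least 10 reads at the site. The sites of OAS1 were next to unedited, with 2 of 22315 reads on day 5 of ADAR+hnRNPC targeting and 2 of 11263 with IFN-α. At the sites of OAS3, 17 of 107 reads were edited with IFN-α (15.9%, 95% Wilson interval 10.2 to 24.0%, from replicate 2 alone) and 6 of 588 in ADAR+hnRNPC-targeted cells of day 5 (1.02%, 0.468 to 2.21%). At the sites of OASL, 13 of 151 reads were edited with IFN-α (8.61%, 5.10 to 14.2%) and 52 of 1885 in ADAR+hnRNPC-targeted cells of day 5 (2.76%, 2.11 to 3.60%). Single libraries overlapped between these groups. With IFN-α, replicate 1 had 2 of 56 reads edited (3.57%) and replicate 2 had 11 of 95 (11.6%), so that the value without replicate 2 was 3.57%. On day 5, replicates 1 and 2 had 8 of 470 (1.70%) and 9 of 532 (1.69%), and replicate 3 held 35 of the 52 edited reads, with 883 reads in all (3.96%). Neighboring sites share reads, the intervals cover counting error only, and no test was made. The other groups had under 10 reads at each site of OAS3 and OASL in every library, and with a minimum of 20 reads the IFN-α libraries dropped out as well. In study 2, 5 other UTR sites of OASL (chr12:121458110-121458117) had 0 to 4 edited reads per group, with 4 of 183 in cytosolic RNA of CTRL cells (2.19%, 0.853 to 5.48%), all from replicate 2 (4 of 108, with 0 of 75 in replicate 1), and 1 of 2882 in cytosolic RNA of ADAR+hnRNPC-targeted cells (0.0347%, 0.00613 to 0.196%). Editing cluster–containing regions, which the authors built from nearby clusters of edited sites with flanking sequence, overlapped none of the 4 genes (0 of 2875 in study 1 and 0 of 2794 in study 2).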

How the data were processed

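Total RNA, or RNA of digitonin fractions, of THP-1 clones was sequenced after removal of ribosomal RNA. The authors aligned the reads with STAR 2.5.4a to GRCh37, counted uniquely mapped reads with featureCounts, and deposited raw counts for exons of genes, introns (study 1), and editing cluster–containing regions, and, per editing site, the counts of edited and of all reads. Groups were taken from the labels. Library totals are given in the report; 0 columns were without a sample.

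The libraries of each study went into 1 model of the gene counts, fitted in R 4.3.3 with edgeR 4.0.16 (glmQLFit, glmQLFTest, TMM), without covariates, for genes with an average log2 CPM of at least 0.5 (introns at least 1). P-values were adjusted after Benjamini-Hochberg over all features tested. Interactions of study 1 used the 12 libraries of the day, and those of study 2 a contrast. Interactions and differences between fold changes were called by adjusted p alone. The genes named are the 4 members, HNRNPC, ADAR, fixed pathway and marker lists, and the 3 genes most like each member. The members and lists were chosen with earlier results of these data known, and some listed genes are not reported here. The study describes its replicates as independent experiments. Whether a replicate number marks the same experiment across groups is not given in the sources used here, so numbers were not used as pairs, and calls that the replicate block changed are given in the report. Alternatives were DESeq2 1.42.0, limma-voom (limma 3.58.1), RLE and library totals in place of TMM, no filter, a replicate block, GFP-targeted cells as control, leaving out each library, and, added after the data were seen, the union of exons as the gene length. The fits were tested on simulated data with 200 changed genes. Gene positions and lengths came from GENCODE annotation lifted to GRCh37, which is newer than the annotation of the counts, and 55538 of 57820 gene IDs matched a name.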

Additional observations from a re-analysis of the deposited data

Results flagged for a closer look

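The following differences between days were flagged because the test of the difference itself passed. They are changes of the log2 fold change against CTRL cells between 2 days of harvest. In ADAR+hnRNPC-targeted cells, day 4 minus day 3 gave 2.70 ± 0.29 (SE) for OAS1, 2.65 ± 0.24 for OAS2, 2.48 ± 0.26 for OAS3, and 4.04 ± 0.52 for OASL. Day 5 minus day 4 gave 3.35 ± 0.27 for OAS1, 3.45 ± 0.23 for OAS2, 4.14 ± 0.26 for OAS3, and 4.16 ± 0.45 for OASL. Day 5 minus day 3 gave 6.05 ± 0.29 for OAS1, 6.10 ± 0.25 for OAS2, 6.62 ± 0.27 for OAS3, and 8.21 ± 0.57 for OASL. The largest adjusted p of these 12 differences was 1.1e-06, for OASL on day 4 minus day 3. For OAS1, OAS2, and OAS3 it was 2.2e-08. Each difference was called without any 1 library of its 4 groups. Those of OASL are a description, since it passed the filter on low counts only through the groups in which it was high. In ADAR-targeted cells, day 5 minus day 3 gave 1.17 ± 0.24 for OAS2 (adjusted p = 0.031), with the same direction but without a call in most fits that left out a library. Groups of 2 or 3 libraries are too small to single out one that stands apart.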

How the results depend on the processing

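None of the called log2 fold changes reversed under any alternative. Over single genes and alternatives, 1233 values were unchanged in call, 39 gained a call, 61 lost one, and 17 moved. Among 147 values without a call in the main fit or the alternative, 49 changed sign. The counts of called OAS genes changed as follows. With limma-voom, OASL was lost (1 to 0) in ADAR+hnRNPC against CTRL of day 3, in ADAR and hnRNPC of day 4, in hnRNPC of study 2 total RNA, and OAS2 in the ADAR difference of day 5 minus day 3. With GFP-targeted cells as control, ADAR and hnRNPC of day 4 fell from 1 to 0. With DESeq2, the ADAR difference of day 5 minus day 3 rose from 1 to 2; DESeq2 gave no adjusted p for the members in the interaction of day 3. Without a filter on low counts, the ADAR differences rose from 0 to 2 (day 4 minus 3), 0 to 4 (day 5 minus 4), and 1 to 4 (day 5 minus 3), and in study 2 hnRNPC in total RNA rose to 2, the interaction in total RNA from 0 to 2, ADAR+hnRNPC against ADAR in cytosolic RNA from 1 to 3, and the difference of cytosolic minus total RNA from 0 to 2. Leaving out 1 library gave 0 to 1 called OAS genes for ADAR+hnRNPC of day 3, ADAR and hnRNPC of day 4, hnRNPC of day 5, and the ADAR difference of day 5 minus day 3, 2 to 4 for ADAR of day 5, 2 to 3 for ADAR+hnRNPC of day 5 against IFN-α, and 0 to 3 for CTRL of day 5 against day 3. In study 2 it gave 1 to 4 for ADAR in total and 2 to 4 in cytosolic RNA, 0 to 2 for hnRNPC in total RNA, 0 to 3 (total) and 0 (cytosolic) for ADAR+hnRNPC against ADAR, 3 to 4 against hnRNPC in total RNA, and 0 to 1 for the interaction in total RNA and for cytosolic against total RNA in hnRNPC- and ADAR+hnRNPC-targeted cells.

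Introns without the filter had many more calls, since 35 in place of 3 were tested: 35 with IFN-α, 34, 34, and 33 for ADAR+hnRNPC of day 4 against CTRL, ADAR, and hnRNPC, 35, 35, and 35 on day 5, 32 lower on day 4 and 20 higher on day 5 against IFN-α, 3, 3, and 7 for hnRNPC of days 3, 4, and 5, 3 for ADAR of day 5, 3 for ADAR+hnRNPC and 1 for GFP of day 3, and 2 for CTRL of day 5 against day 3. With intron totals as library sizes, 1 intron was called on day 5 against IFN-α. Leaving out 1 library gave 0 to 1 introns there, for ADAR+hnRNPC of day 3, and for CTRL of day 5 against day 3. For introns, only libraries of the CTRL, ADAR+hnRNPC, and IFN-α groups were left out in turn, and the others were not run.

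Same-numbered replicates correlated above 0.1 in 46 of 66 pairs in study 1 (−0.170 to 0.748) and 24 of 30 in study 2 (−0.211 to 0.445), and every pair of a comparison did so in 9 of 22 and 12 of 15 comparisons. No label ties a number to a shared experiment, and with 2 pairs a comparison the correlations of study 2 do not decide it, so the numbers were not taken to pair samples. With the replicate block, the ADAR difference of day 5 minus day 3 rose from 1 to 3, the interaction in total RNA of study 2 from 0 to 1, ADAR+hnRNPC against ADAR in cytosolic RNA from 1 to 3, and introns of hnRNPC of day 3 from 0 to 1, and no other count moved by over 1.5 times. Library totals in place of TMM shifted the median of all genes by up to 0.236 (log2).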
